A study of Mus musculus with 12 samples.

Results

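The genes described here are Fgfr2, the receptor through which lung epithelium receives fibroblast growth factors (FGFs), and 8 genes that FGF and ERK signalling switches on or that dampen it: Etv4, Etv5, Spry1, Spry2, Spry4, Spred1, Spred2 and Dusp6. They were chosen by name, with earlier results of these data known, and all 9 were found among the 16080 genes measured. The genes were measured in 12 RNA-seq libraries of mouse alveolar epithelial type 2 cells (AEC2), the surfactant-producing cells of the lung. The libraries fell into 3 genotypes at Sftpc, the surfactant protein C (SP-C) gene, with 4 libraries each: WT, C185Gneo, a hypomorphic form used as a control, and C185G, the mutant form. All mice were female, of strain Bl6 and at postnatal day 56, and every group, the controls included, had received 200 mg per kg of tamoxifen intraperitoneally on 2 days, with cells isolated on day 7. No source used here gives the recombinase or the promoter that drives it. Groups follow the genotype labels; the titles of the C185Gneo libraries carry the name C185G and those of the C185G libraries a different code. Whether replicates are different mice is not stated, so p-values reflect the spread between libraries alone, and that spread may be technical.

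Recovered read counts ran from 15659512 to 23444287 per library. Levels are given as normalized CPM (counts scaled to a common library total), and 1 count was worth 0.0428 to 0.0616 CPM. Mean Sftpc was 7467 CPM (WT), 895 (C185Gneo) and 2833 (C185G). All 10 AEC2 markers examined were measured in all 3 groups, and none was at 0. C185Gneo replicate 1 stood apart from its group: it had the lowest summed markers of alveolar type 1, airway, endothelial, mesenchymal, mesothelial and leukocyte cells there (mesenchymal 156 CPM, against 347 to 476 in the other 3) and the highest summed AEC2 markers. WT replicate 4 had the lowest summed AEC2 markers of the WT libraries, 33322 CPM against 37340 to 38867.

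FGFR2 is a receptor tyrosine kinase. Its epithelial isoform binds FGF7 and FGF10 made by the mesenchyme, and it is needed for lung branching and for the upkeep of AEC2. Bound FGF activates RAS and the ERK kinases, which raise the ETS-family transcription factors ETV4 and ETV5 and a set of inhibitors: Sprouty proteins act on the receptor's route to RAS, SPRED proteins bring neurofibromin to RAS, and the phosphatase DUSP6 removes phosphate from ERK. Because these genes are outputs of the pathway as well as brakes on it, their transcripts are widely used as a readout of FGF and ERK activity.

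RefSeq promoter windows were available for 7 of the 9 genes (GRCm38.p6, 8 windows). The bases before the start site are shown, with annotated exons left out, for the receptor, for Etv5 and Spred2, which had lower levels with it in C185G, for Spred1, whose level was not lower, and for Spry2, the only one with a searched motif. The windows are chr7:130266809-130267058 on the minus strand for Fgfr2, chr16:22439720-22439820 minus for Etv5, chr11:19924192-19924374 plus for Spred2, chr2:117120821-117121070 plus for Spred1 and chr14:105896820-105897069 minus for Spry2. Capitals mark the motif match and each sequence reads 5′ to 3′ on the gene's strand. The bases just after the start site were found in a GENCODE transcript of the gene for Etv5, Spred2 and Spry2. For Fgfr2 and Spred1 they were not, so these RefSeq start sites were not matched in that annotation.
Fgfr2: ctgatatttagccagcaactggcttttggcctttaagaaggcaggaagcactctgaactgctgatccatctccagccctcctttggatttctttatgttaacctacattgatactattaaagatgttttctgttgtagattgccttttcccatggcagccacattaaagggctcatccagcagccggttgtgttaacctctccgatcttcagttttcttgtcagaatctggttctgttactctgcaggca
Etv5: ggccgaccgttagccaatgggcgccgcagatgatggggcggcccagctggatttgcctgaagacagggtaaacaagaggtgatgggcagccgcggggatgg
Spred2: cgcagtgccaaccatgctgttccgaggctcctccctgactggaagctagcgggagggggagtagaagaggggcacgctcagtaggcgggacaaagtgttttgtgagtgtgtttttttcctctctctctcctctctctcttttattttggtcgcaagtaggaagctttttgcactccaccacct
Spred1: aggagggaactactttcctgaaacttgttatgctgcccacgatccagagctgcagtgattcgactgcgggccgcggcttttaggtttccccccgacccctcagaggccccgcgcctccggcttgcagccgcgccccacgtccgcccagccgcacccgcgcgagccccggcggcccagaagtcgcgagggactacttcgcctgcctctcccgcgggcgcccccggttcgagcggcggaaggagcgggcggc
Spry2: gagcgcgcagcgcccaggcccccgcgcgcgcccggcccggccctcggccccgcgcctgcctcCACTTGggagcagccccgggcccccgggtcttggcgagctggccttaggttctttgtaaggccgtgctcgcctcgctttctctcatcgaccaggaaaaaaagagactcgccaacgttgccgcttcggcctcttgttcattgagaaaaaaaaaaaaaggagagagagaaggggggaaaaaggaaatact
Motifs were searched on both strands in these windows, Dusp6 and a further Etv5 window included. The first was CCGGAA, a longer form of GGAA, the core that ETS factors such as ETV5 bind. The core GGAA alone was not searched. The others were TGANTCA, the AP-1 site, and CAAGTG, a core bound by NKX2-1, the lung epithelial homeodomain factor. The searched motifs occur in 12%, 6.75% and 11.6% of 32841 promoter windows of 250 bases over all genes. The Spry1 window lies in annotated exons and is not shown, but it was searched too and held no match. The single match was CAAGTG in Spry2, on the opposite strand, 188 bases before the start. The Fgfr2 window had a GC content of 44.0% and the Spred1 window 70.8%, against a median of 52.4% over all promoters. A match is a description of letters and not a measured binding site.

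In C185G, 6 of the 9 genes were lower than in WT, 2 were higher and 1 did not pass the test. Limma called 55.0% of all 16080 genes in this comparison at a Benjamini-Hochberg adjusted p under 0.05 (27.3% higher and 27.8% lower), and 66.4% of genes with a mean of at least 50 CPM, which 7 of the 9 have. Against C185Gneo, 6 were lower and 1 was higher, where the background was 57.8% (29.2% higher and 28.7% lower, and 68.7% from 50 CPM). Fgfr2, Etv5 and Spry1 fell by more than 1 on the log2 scale in both comparisons, as 6.5% of all genes did against WT and 6.93% against C185Gneo. Etv4 rose by more than 1 in both, as 5.05% and 6.41% of all genes did. Libraries did not overlap between C185G and WT for 6 of the 9 genes (48.7% of all genes), nor between C185G and C185Gneo for 7 (49.9%). Both comparisons use the same C185G libraries and are not independent. Between the control genotypes, C185Gneo and WT, limma called 0 of the 9, with 0 at an unadjusted p under 0.05 and 0 with voom weights on the counts, on a background of 0.541% (0.249% higher and 0.292% lower). Their median change was -0.31 against WT, -0.41 against C185Gneo and 0.05 between the controls, beside medians over all genes of -0.000442, 0.00378 and -4.46e-05. With library totals as the scaling, the calls over all genes were 59.9% higher in place of 49.6% against WT and 58.1% in place of 50.5% against C185Gneo, and the 9 genes were 6 lower and 2 higher against each control.

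**Figure D1:**
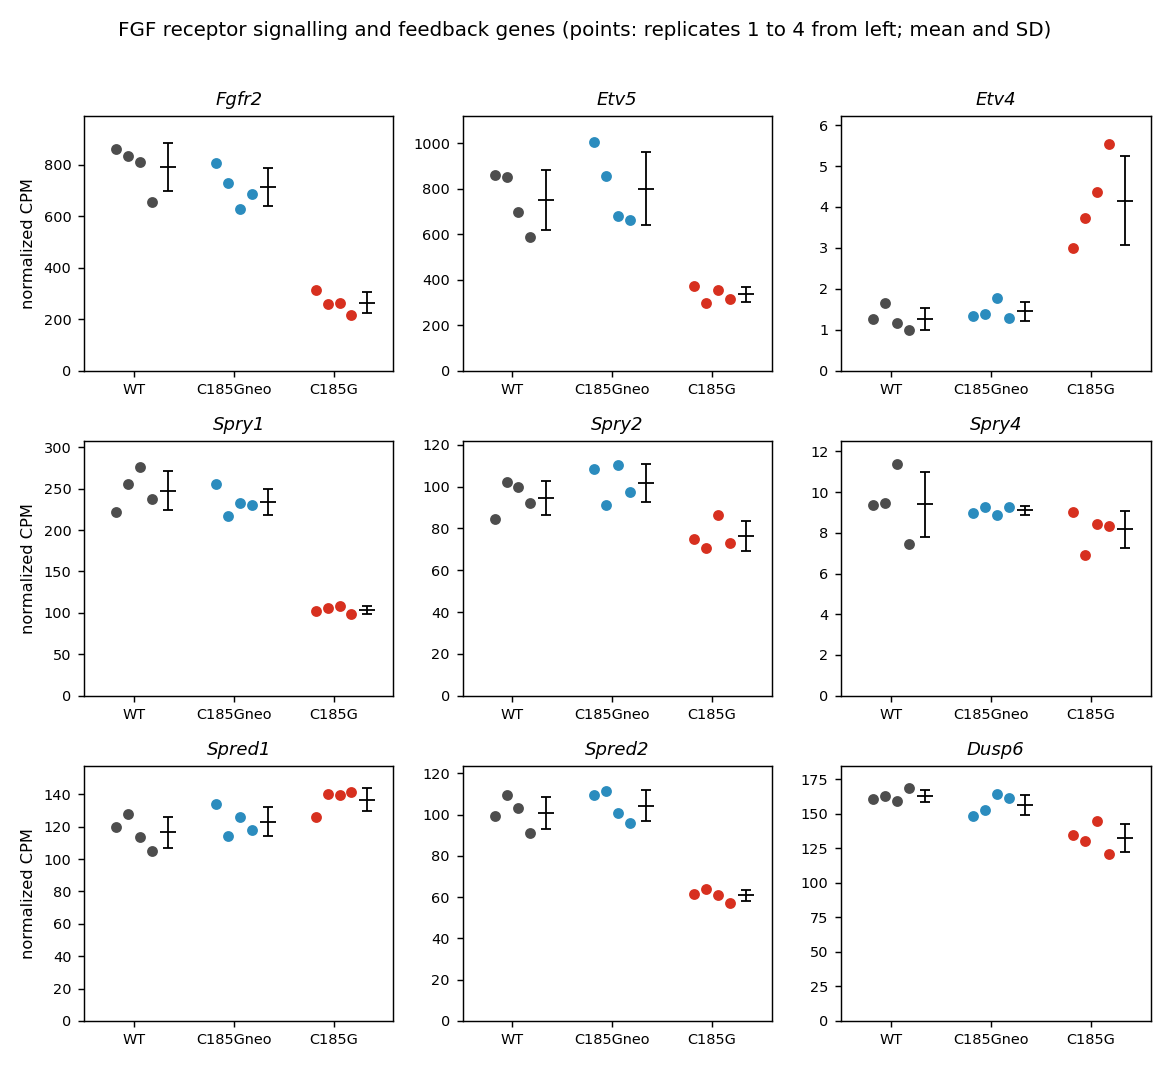
Normalized CPM (y axis, from 0, a separate scale per gene) of each of the 9 genes in every library of WT, C185Gneo and C185G (x axis); points are replicates 1 to 4 from left, and the bar beside them is the mean with its SD (n = 4). C185G libraries lie below all libraries of both controls for Fgfr2, Etv5, Spry1, Spred2 and Dusp6 and above them for Etv4, while Spry4 overlaps.

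Fgfr2 was the member that fell furthest. Its level in WT replicates 1 to 4 was 863, 836, 812 and 657 CPM, in C185Gneo 808, 731, 628 and 688, and in C185G 313, 260.4, 264 and 214. Every C185G library was under the lowest control library, and the ranges of WT and C185Gneo overlapped. Fgfr2 fell by 1.59 on the log2 scale against WT (SE 0.117, adjusted p = 1.77e-07), a 3.02-fold lower level and the 358th lowest change of 16080 genes. Against C185Gneo it fell by 1.45 (adjusted p = 3.57e-07), and without C185Gneo replicate 1 by 1.39. The controls differed by -0.15, with a 95% interval of -0.40 to 0.10 (adjusted p = 0.772). The annotation places Fgfr2 (ENSMUSG00000030849) on the minus strand of chromosome 7, 130162451 to 133123350 in GRCm38, with 27 transcripts. Gene totals do not separate the epithelial from the mesenchymal isoform. Its exons share 314 bases with Ctbp2 on the same strand, and how reads there were assigned is not given in the sources used here.

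The ETS factors ETV5 and ETV4, nuclear effectors of FGF signalling, differed in direction. Etv5 (chromosome 16, 22381309 to 22439719, minus strand), which encodes a factor that maintains AEC2 identity, stood at 858, 852, 699 and 588 CPM in the WT libraries, 1002, 857, 680.2 and 659.8 in those of C185Gneo, and 372, 299, 353 and 314 in those of C185G. The C185G libraries lay below every control library although the controls themselves spread widely, from 588 to 1002 CPM. Etv5 fell by 1.15 against WT (SE 0.149, adjusted p = 3.88e-05), a 2.22-fold lower level, and by 1.24 against C185Gneo (adjusted p = 1.93e-05). Etv4 (chromosome 11, 101769742 to 101785371, minus strand), its close relative, was scarce in every library. Its level was 1.26, 1.64, 1.17 and 0.986 CPM in the WT libraries, 1.33, 1.39, 1.78 and 1.28 in those of C185Gneo, and 2.99, 3.73, 4.36 and 5.54 in those of C185G. These values rest on 16 to 29 counts per library in WT, 22 to 31 in C185Gneo and 58 to 90 in C185G, and no C185G library overlapped a control. Etv4 rose by 1.68 against WT (SE 0.216, adjusted p = 1.99e-05) and by 1.48 against C185Gneo (adjusted p = 5.38e-05). The depth behind Etv4 is low, and a minimum mean of 5 CPM leaves it out.

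The Sprouty genes showed a large, a small and no called change. Spry1 (chromosome 3, 37639947 to 37644598, plus strand) was 221, 255, 276 and 237 CPM in the WT libraries, 255, 217, 232 and 229.7 in those of C185Gneo, and 102, 106, 109 and 98.1 in those of C185G. The C185G libraries were close to each other and all below the controls. Spry1 fell by 1.25 against WT (SE 0.0702, adjusted p = 1.02e-08) and by 1.17 against C185Gneo (adjusted p = 1.39e-08), and its SE was smaller than that of Fgfr2 or Etv5. Its exons share 710 bases with Gm42922 on the opposite strand, a gene not measured here. The strand setting of the counting is not given, so reads from the pair cannot be told apart.

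Spry2 (chromosome 14, 105891947 to 105896819, minus strand) was 84.3, 102, 99.8 and 92.3 CPM in the WT libraries, 108, 91.0, 110.1 and 97.5 in those of C185Gneo, and 75.0, 70.7, 86.5 and 73.1 in those of C185G. C185G replicate 3 overlapped WT replicate 1, and no C185G library overlapped C185Gneo. Spry2 fell by 0.31 against WT (SE 0.0826, adjusted p = 0.00577) and by 0.41 against C185Gneo (adjusted p = 0.000732). Spry4 (chromosome 18, 38586247 to 38601415, minus strand), the lowest of these Sprouty genes per kilobase, was 9.38, 9.45, 11.4 and 7.46 CPM in the WT libraries, 8.98, 9.28, 8.86 and 9.29 in those of C185Gneo, and 9.01, 6.89, 8.45 and 8.32 in those of C185G. Its groups overlapped. Spry4 differed by -0.20 against WT (adjusted p = 0.199), with a 95% interval of -0.46 to 0.07, and by -0.16 against C185Gneo, with an interval of -0.43 to 0.11. Without WT replicate 4, the lowest WT library, Spry4 was called lower (-0.30, adjusted p = 0.0443).

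The SPRED genes, which encode membrane adaptors that inhibit RAS, moved in opposite directions. Spred2 (chromosome 11, 19924375 to 20024026, plus strand) was 99.4, 109.7, 103 and 91.3 CPM in the WT libraries, 109.7, 111, 101 and 95.8 in those of C185Gneo, and 61.3, 63.8, 61.3 and 57.2 in those of C185G. All C185G libraries were below all controls. Spred2 fell by 0.73 against WT (SE 0.0666, adjusted p = 8.5e-07), a 1.65-fold lower level, and by 0.78 against C185Gneo (adjusted p = 4.02e-07). Spred1 (chromosome 2, 117121374 to 117182279, plus strand) was 119.6, 128, 113 and 105 CPM in the WT libraries, 134, 114, 126 and 118 in those of C185Gneo, and 126, 140.1, 139.6 and 141 in those of C185G. C185G replicate 1 overlapped the controls and the other 3 exceeded every control library. Spred1 rose by 0.23 against WT (SE 0.0691, adjusted p = 0.0108). Against C185Gneo the difference of 0.15 did not pass the adjusted threshold (95% interval 0.00 to 0.30, adjusted p = 0.0727). It passed with library totals as the scaling (0.22, adjusted p = 0.0125), without C185Gneo replicate 1 (0.19, adjusted p = 0.0327) and without C185G replicate 1 (0.19, adjusted p = 0.0306).

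Dusp6 (chromosome 10, 99263231 to 99267489, plus strand), the ERK phosphatase, was the steadiest of the 9 within WT, at 160.4, 163, 159 and 169 CPM. It was 148, 153, 164 and 161 CPM in C185Gneo and 134, 131, 145 and 121 in C185G. All C185G libraries were lower than all controls, by a small margin. Dusp6 fell by 0.30 against WT (SE 0.0575, adjusted p = 0.000581), a 1.23-fold lower level, and by 0.24 against C185Gneo (adjusted p = 0.00261).

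**Figure D2:**
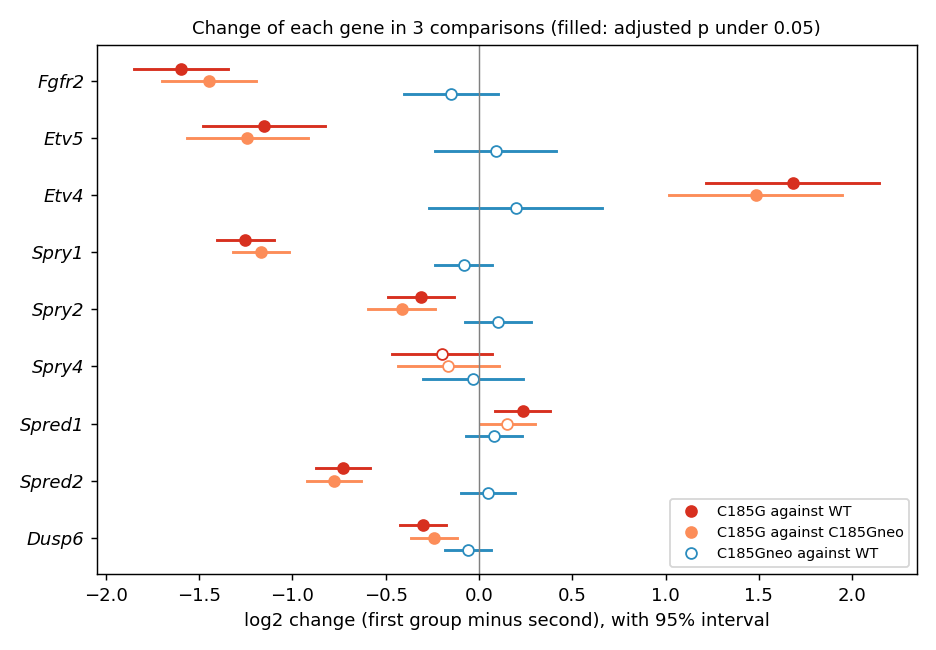
Log2 change (x axis) of each of the 9 genes (y axis) for the mutant against each control and for both controls against each other, with 95% intervals as lines; filled points have a limma adjusted p under 0.05. Against WT the changes run from -1.59 for Fgfr2 to 1.68 for Etv4, while no point between the controls is filled.

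Between the controls the 9 changes ran from -0.15 for Fgfr2 to 0.20 for Etv4, and the adjusted p-values from 0.772 to 0.969. The widest interval was that of Etv4, -0.27 to 0.66, and the narrowest that of Dusp6, -0.18 to 0.07. Sftpc itself fell by 3.07 between the same libraries (adjusted p = 5.93e-10). The intervals of Fgfr2, Etv5 and Spry1 between the controls leave out the sizes measured in C185G against WT.

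Within groups, several of the 9 genes were highest or lowest in the libraries that stood apart. WT replicate 4 had the lowest WT level of Fgfr2, Etv4, Etv5, Spry4, Spred1 and Spred2, and the highest of Dusp6. C185Gneo replicate 1 had the highest C185Gneo level of Fgfr2, Etv5, Spry1 and Spred1, and the lowest of Dusp6. Leaving out WT replicate 4, Fgfr2 fell by 1.68 and Etv5 by 1.26 against WT. The part of cell makeup in these library differences was not tested.

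Levels of different genes were compared per kilobase of annotated exon. In WT, Etv5 was highest at 183 ± 31.8 CPM per kb (SD, n = 4), followed by Spry1 at 85.2 ± 8.10, Fgfr2 at 76.7 ± 8.96, Dusp6 at 52.0 ± 1.30 and Spry2 at 45.3 ± 3.86. Spred2 at 21.9 ± 1.66 and Spred1 at 17.2 ± 1.43 came next, then Spry4 at 1.98 ± 0.336 and Etv4 at 0.407 ± 0.0888. The ranges of Spry1 and Fgfr2 overlapped, and those of the other neighbours in this order did not. In C185G the order changed: Etv5 remained highest at 81.6 ± 8.30, but Dusp6 (42.3 ± 3.19), Spry2 (36.6 ± 3.36) and Spry1 (35.7 ± 1.66) came before Fgfr2 at 25.5 ± 3.94. Spred1 stood at 20.2 ± 1.06 and Spred2 at 13.2 ± 0.599, the reverse of their order in WT. In C185G the ranges of Dusp6 and Spry2, of Spry2 and Spry1, and of Fgfr2 and Spred1 overlapped.

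The ratios between related genes were also taken. Spry1 per kilobase was 1.88 ± 0.0814 times the level of Spry2 in WT, 1.65 ± 0.0933 times in C185Gneo and 0.980 ± 0.0738 times in C185G. Spred1 was 0.786 ± 0.0300 times the level of Spred2 in WT, 0.806 ± 0.0713 times in C185Gneo and 1.53 ± 0.119 times in C185G. Etv5 was 453 ± 50.2 times the level of Etv4 in WT, 429 ± 119.8 times in C185Gneo and 64.8 ± 21.5 times in C185G, a ratio that rests on the few Etv4 counts. These ratios are taken within a library and do not depend on its scaling. In C185G the ratio of each pair lay outside the range of both controls. The Spry1 to Spry2 ratio ran from 1.51 to 1.71 in C185Gneo and from 1.80 to 1.99 in WT, and neither gene was called between these groups. The pairs were chosen after the values had been seen, and the ratios are descriptions with no test.

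All AEC2 markers other than Sftpc were lower in C185G as well. Those 9 markers were summed to 26110.2 to 31413 CPM per library in WT, 29089 to 32575 in C185Gneo and 11049.7 to 13943 in C185G. All 9 were called lower against both controls, with a median change of -1.25 against WT and -1.41 against C185Gneo. In bulk RNA, fewer AEC2 among the cells and less of these transcripts per cell cannot be told apart. The mean of the 9 log2 changes was -1.19 against WT and -1.24 against C185Gneo. Set against that mean, Etv5 differed by 0.04 against WT and -0.000983 against C185Gneo, and Spry1 by -0.06 and 0.07, with overlapping groups in each case.

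Fgfr2 fell further than the mean of the 9 markers, but not further than each of them. Against WT it changed by -1.59, and the marker that fell most by -1.74. The log2 difference between Fgfr2 and the mean of the 9 markers was -1.54 ± 0.0509 in WT (mean ± SD, n = 4), -1.74 ± 0.0835 in C185Gneo and -1.94 ± 0.0956 in C185G. C185G and WT libraries did not overlap in this measure, C185G and C185Gneo libraries did, and C185Gneo and WT libraries did not. Spred2 was higher relative to the markers by 0.46 in C185G than in WT, Spry2 by 0.88, Dusp6 by 0.89, Spry4 by 0.99, Spred1 by 1.42 and Etv4 by 2.87, each with no overlap between the groups. These relative values are descriptions with no test. The marker mean changed by -1.19 against WT, and the median over all genes by -0.000442. A gene that kept its level would therefore also be higher on this measure. Spred2, Spry2 and Dusp6 were themselves called lower in C185G. How many of all genes show no overlap on this measure was not counted. Of the 9 markers, Nkx2-1, which encodes the lung epithelial transcription factor, changed least (-0.32 against WT), and Slc34a2, the phosphate transporter of AEC2, most (-1.74).

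**Figure D3:**
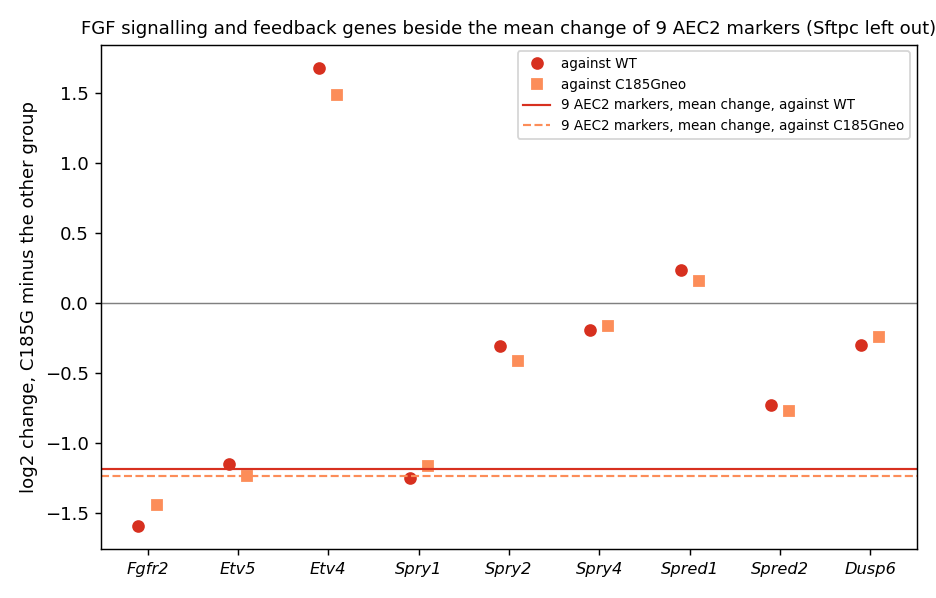
Log2 change of each of the 9 genes (x axis) in C185G minus WT (circles) and C185G minus C185Gneo (squares), with lines at the mean log2 change of 9 AEC2 markers, -1.19 (solid) and -1.24 (dashed). Etv5 and Spry1 lie at the lines, Fgfr2 below them and the other 6 above.

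Markers of other cells were present in all groups, with none at 0. Summed mesenchymal markers were 409 to 622 CPM in WT, 156 to 476 in C185Gneo and 568 to 769.6 in C185G, and 8 of 10 were called higher in C185G than in C185Gneo but 1 of 10 than in WT. Summed mesothelial markers were 1084 to 1295, 701 to 1348 and 1478 to 1681 CPM, and leukocyte markers (7 of 12 measured) 55.6 to 76.0, 47.0 to 69.6 and 78.3 to 135 CPM in the same order. Endothelial markers (9 of 10 measured) were 159.9 to 251, 147 to 233 and 119 to 140.1 CPM, airway markers (8 of 10) 6180.2 to 8482, 6461 to 8058 and 5150.0 to 6136 CPM, and alveolar type 1 markers 2170.3 to 2856, 2057 to 2643 and 2259 to 3022 CPM. Against WT, 1 of 6 mesothelial and 4 of 7 leukocyte markers were called higher, with 0 lower. Called lower were 6 of 9 endothelial and 4 of 8 airway markers, with 0 higher. Of 10 alveolar type 1 markers, 3 were higher and 1 lower. Over all genes 27.3% were called higher and 27.8% lower. The part of these cells in the changes of the 9 genes was not tested.

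Over the 12 libraries, the genes whose centred log2 values lay nearest to those of Fgfr2, among 11096 named genes with a mean of at least 5 CPM, included Chd3, a chromatin remodeller (mean absolute difference 0.0660), Chsy1, a chondroitin synthase (0.0750), Camk2n1, an inhibitor of CaM kinase II (0.0910), and Fasn, fatty acid synthase (0.0913). Of the other 8 genes, Spry1 was nearest (0.181, the 116th in order), then Etv5 (0.188, the 141st) and Spred2 (0.342). Nearest to Etv5 were Lpcat1, a phospholipid-remodelling enzyme of surfactant synthesis (0.0879), Cpeb3, Cacna1c, Rab27b and Cebpa, the C/EBP alpha transcription factor (0.0988). These genes had log2 changes from -1.67 to -0.97 in C185G against WT.

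The rest of the pathway was followed through 7 lists of 114 genes, of which 96 were measured. Against WT, 25 were called higher and 29 lower, with a median change of -0.05, and with library totals as the scaling 31 higher and 22 lower. Against C185Gneo, 30 were higher and 30 lower (median -0.03). The share called was 54 of 96 against WT, beside the 55.0% of all genes, and 60 of 96 against C185Gneo, beside 57.8%. Between the controls 1 of 96 was called, Epha4, an ephrin receptor, at 14.1 ± 2.15 CPM in WT and 8.44 ± 0.933 in C185Gneo (-0.74, adjusted p = 0.0323); it was named after its value was seen. That call was lost in several settings, among them leaving out WT replicate 1, 2 or 3 or C185Gneo replicate 1, 2 or 3, quantile normalization and the fit without the mean-variance trend.

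Of 22 genes in the FGF ligand list 8 were measured, and 2 were higher and 4 lower in C185G than in WT (median -0.27). The list also holds genes of intracellular FGF homologues, which are not receptor ligands. Fgf11 and Fgf13 are such genes, are among the 4 lower and are counted in the median. Fgf1, an acidic FGF that binds all FGF receptors, was the highest ligand gene per kilobase (37.9 CPM per kb in WT) and fell from 207 ± 13.8 CPM in WT to 129 ± 6.98 (SD, n = 4; -0.68, adjusted p = 4.68e-07). It was 222 ± 8.63 CPM in C185Gneo. Fgf11, an intracellular FGF homologue, fell from 14.3 ± 0.851 to 6.99 ± 1.91 CPM (-1.07, adjusted p = 5.62e-05). Both also fell against C185Gneo.

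Fgf7 and Fgf10, the mesenchymal ligands of the epithelial FGFR2 isoform, were low in these libraries, unlike Fgf1. Fgf7 was 2.01 ± 0.283 CPM in WT, 2.21 ± 0.574 in C185Gneo and reached 3.45 ± 0.756 in C185G (0.75 against WT, adjusted p = 0.00712), on 52 to 81 counts per C185G library. Fgf10 had 11 to 19 counts per library in WT, 2 to 33 in C185Gneo and 9 to 22 in C185G. It was not called. Fgf2, which encodes basic FGF, rose from 4.17 ± 0.264 to 7.85 ± 2.07 CPM (0.87, adjusted p = 0.0204), a call lost without C185G replicate 2 (0.77, adjusted p = 0.0575) or 4 (0.75, adjusted p = 0.0623). Fgf9 (-0.50, adjusted p = 0.0494) and Fgf13 (-0.74, adjusted p = 0.0455) were lower against WT at the margin of the threshold, at means of 1.70 and 0.629 CPM in C185G. The Fgf9 call was lost with quantile normalization (adjusted p = 0.0599) and library totals as the scaling (0.0926), and its adjusted p reached 0.125 when 1 library was left out. The Fgf13 call was lost with the same settings (0.125 and 0.0731), and its adjusted p reached 0.127 when 1 library was left out. Fgf18 was 4.53 ± 1.18 CPM in WT and 4.39 ± 0.904 in C185G and was not called. The rise of Fgf2 and Fgf7, genes of mesenchymal cells among others, came in libraries with summed mesenchymal markers of 568 to 769.6 CPM, and the link was not tested.

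Fgfr2 led the FGF receptors in every group. Per kilobase it stood at 12.7 ± 2.34 times Fgfr1 and 3.91 ± 0.876 times Fgfr3 in WT, and at 5.73 ± 1.12 and 1.95 ± 0.236 times in C185G. Fgfr3 fell from 143 ± 17.1 CPM in WT to 93.9 ± 15.0 (-0.61, adjusted p = 0.000329) and was 153 ± 8.52 in C185Gneo. Fgfr1, the main mesenchymal FGF receptor, fell from 60.1 ± 6.17 to 44.6 ± 8.02 CPM (-0.44, adjusted p = 0.00683), with overlapping groups. Against C185Gneo its change of -0.35 (adjusted p = 0.0228) was not called with library totals as the scaling (adjusted p = 0.0667).

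Of the 7 receptors and coreceptors measured beside Fgfr2, 3 were lower and 0 higher against WT (median -0.04), and 2 lower and 1 higher against C185Gneo. Fgfrl1, a receptor without a kinase domain, was 27.4 ± 2.71 CPM in WT and 26.5 ± 1.53 in C185G (-0.04, 95% interval -0.21 to 0.12). Fgfr4 was at 1.54 ± 0.335 and 2.06 ± 0.195 CPM and was not called. Among the FLRT membrane proteins, which bind FGF receptors, Flrt3 fell from 37.5 ± 5.91 to 27.2 ± 3.62 CPM (-0.46, adjusted p = 0.00672). Flrt2 was 1.39 higher than in C185Gneo (adjusted p = 0.00458) and 0.81 above WT (adjusted p = 0.0651, 0.0311 with voom weights and 0.0177 without C185Gneo replicate 1). Flrt1 had a mean of 1.03 CPM in WT and 1.45 in C185G and was not called.

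**Figure D4:**
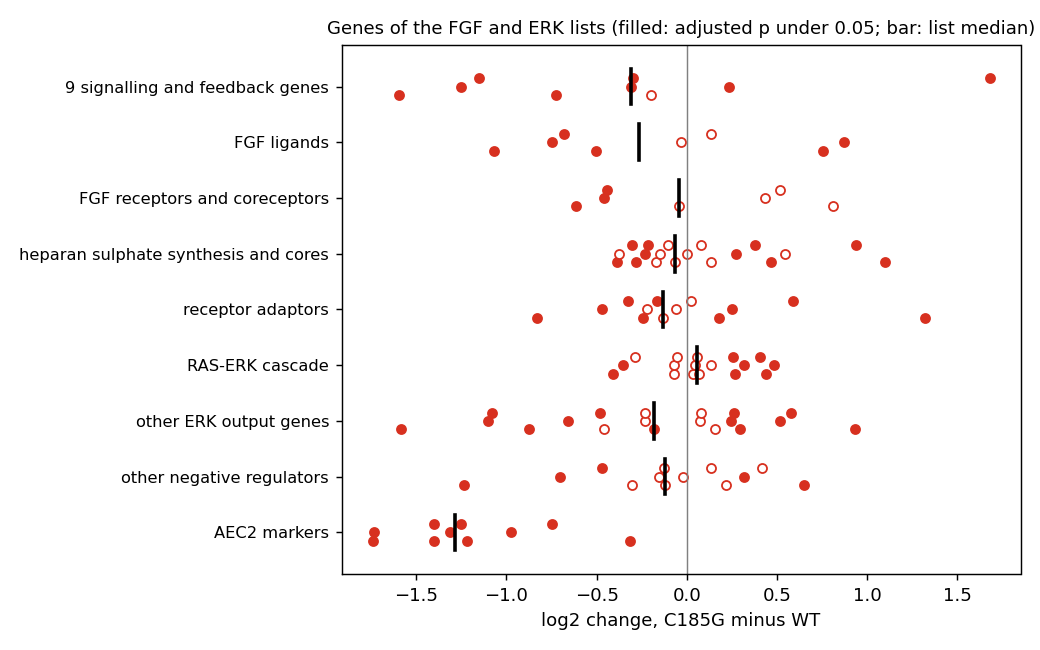
Log2 change in C185G minus WT (x axis) of every measured gene of the 9 signalling and feedback genes, of 7 lists of the FGF and ERK pathway and of the AEC2 markers (y axis); filled points have a limma adjusted p under 0.05 and bars are list medians. The pathway lists spread to both sides of 0 with medians from -0.27 to 0.06, and the AEC2 markers lie below 0 with a median of -1.28.

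Heparan sulphate, the sugar chain that FGFs need to engage their receptors, was represented by 19 genes, with 5 higher and 5 lower against WT (median -0.07). The sulphotransferase genes Hs3st1 and Hs6st1 rose from 6.34 ± 0.735 to 13.8 ± 2.86 CPM (1.10, adjusted p = 5.8e-05) and from 127 ± 6.07 to 166 ± 16.4 CPM (0.38). Sulf2, which encodes an extracellular enzyme that removes sulphate from the chain, rose from 47.6 ± 6.86 to 93.1 ± 22.6 CPM (0.94, adjusted p = 0.0012). The core protein gene Gpc1 rose by 0.47 and the chain polymerase gene Ext1 fell by 0.30. Sdc1, syndecan 1, fell by 0.23 (adjusted p = 0.00727), which was not called with quantile normalization (-0.15, adjusted p = 0.0708). These genes kept the same direction against C185Gneo.

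The adaptors that link the receptor to RAS changed in both directions, 4 higher and 5 lower of 13 against WT (median -0.13). Gab2, a docking protein, rose from 29.4 ± 1.61 to 75.2 ± 17.7 CPM (1.32, adjusted p = 5.18e-06), while its relative Gab1 fell by 0.32 (adjusted p = 0.000107). Shc1 rose by 0.59 and Ptpn11, the phosphatase SHP2, by 0.25. Frs3, an FGF receptor substrate, fell from 5.40 ± 0.536 to 3.04 ± 0.448 CPM (-0.83), and Cbl, a ubiquitin ligase that removes active receptors, fell by 0.47.

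Of 17 genes of the RAS and ERK cascade, 6 were higher and 2 lower against WT (median 0.06), and 6 and 2 against C185Gneo. Map2k2, the kinase MEK2, rose by 0.48 (SE 0.0618, adjusted p = 1.89e-05), and the scaffold gene Lamtor3 by 0.44. The RAS gene Nras rose by 0.41. Mapk3, the kinase ERK1, fell from 177 ± 7.56 to 133 ± 6.75 CPM (-0.41, adjusted p = 5.37e-05), and Rps6ka3, an ERK-activated kinase, fell by 0.35. The 17 changes ran from -0.41 to 0.48 on the log2 scale.

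Other genes that ERK signalling regulates were split, 6 higher and 7 lower of 19 against WT (median -0.18) and 7 and 9 against C185Gneo. Myc rose from 183 ± 9.84 to 349 ± 26.3 CPM (0.93, adjusted p = 2.05e-07). The ERK phosphatase gene Dusp4 rose by 0.58 (adjusted p = 0.000314), where Dusp6 fell by 0.30, and the AP-1 gene Fosl1 rose by 0.52 (adjusted p = 3.56e-05). Ier2, an immediate early gene, fell from 291 ± 47.3 to 137 ± 19.9 CPM (-1.08), and Fgfbp1, a secreted carrier of FGFs, fell from 115 ± 5.93 to 62.9 ± 7.91 (-0.87). Bcl2l11, the cell death gene BIM, which ERK activity is known to lower, fell from 186 ± 21.7 to 62.1 ± 5.97 CPM (-1.58, adjusted p = 2.19e-08).

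Of 13 other negative regulators measured, 2 were higher and 3 lower against WT (median -0.12), and 4 and 4 against C185Gneo. Grb14, an adaptor that inhibits receptor kinases, fell from 205 ± 8.32 to 89.9 ± 27.1 CPM (-1.24, adjusted p = 2.84e-05). Errfi1, an inhibitor of the EGF receptor, fell from 1631 ± 23.0 to 1005 ± 65.6 CPM (-0.70). Cic, a repressor of ETV4 and ETV5 that ERK inactivates, fell by 0.47 (SE 0.0501, adjusted p = 3.36e-06). Pebp1, a RAF inhibitor, rose by 0.32. The scarce phosphatase gene Dusp9 rose from 3.56 ± 0.402 to 5.58 ± 0.322 CPM (0.65, adjusted p = 0.0048); its call against C185Gneo (0.42, adjusted p = 0.0446) was lost under several alternatives, with adjusted p-values up to 0.139 when 1 library was left out. Il17rd, which encodes the FGF receptor inhibitor SEF, was 0.93 higher than in C185Gneo (adjusted p = 0.00765) and 0.42 above WT (adjusted p = 0.184, 0.00400 with only the 8 libraries compared and 0.0319 without C185Gneo replicate 1).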

How the data were processed

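RNA of AEC2 was sequenced in 12 libraries, 4 per genotype. Per the labels' protocols, lungs were digested with Dispase and DNase I, plastic adherence took out mesenchymal cells, magnetic beads took out leukocytes, and libraries followed standard Illumina methods. STAR, limma and mm10 are named without versions in the submitters' processing notes; no source used here gives the counting tool, annotation or strand setting.

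The authors deposited log2 values. Judged from their spacing, each is the log2 of a whole count plus 0.5, times a library factor. Counts were recovered from that spacing (100% whole within 1e-06). Totals were 15659512 to 23444287 counts, and scaled totals differed by at most 1.084 times. Normalized CPM are counts on this scaling set against the average scaled total. The added 0.5 understates changes of genes with few counts, and counting error is relatively larger in shallow libraries.

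The 3 genotypes were fitted together (12 libraries, 3 contrasts, no covariates) by limma 3.58.1 under R 4.3.3, using lmFit and eBayes with its trend and robust options, and Benjamini-Hochberg adjustment over all 16080 genes at 0.05. The procedure was tested on simulated data with far fewer changed genes than were called in C185G. That test does not cover how the scaling behaves when changes are this widespread. GENCODE M21 (GRCm38) gave symbols for 16017 genes, coordinates and exon lengths, and RefSeq (GRCm38.p6) the promoters. Figures used Python 3.11.15 and matplotlib 3.10.9.

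The 9 genes and the lists were chosen with earlier results of these data known. Named pathway genes were all measured ligands and receptors and, per list, up to 6 genes with the smallest p over the contrasts and a mean of at least 1 CPM. Nearest genes were the 5 with the smallest mean absolute difference of centred log2 values and a mean of at least 5 CPM. Not every gene selected by these rules is reported here. Alternatives were eBayes without trend, quantile normalization, library totals or median-of-ratios as the scaling, a minimum mean of 5 CPM, the replicate number as a block, a fit of only the 8 libraries compared, voom weights on the counts, library quality weights, and leaving out each library.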

Additional observations from a re-analysis of the deposited data

Results flagged for a closer look

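Among 48 groups of 4 libraries checked for a single library far from the others (the 9 genes and the summed markers of 7 cell types in each genotype), 3 were marked, and chance marks about 1 in 20. Spred1 in C185G was 126 CPM in replicate 1 and 139.6 to 141 CPM in the other 3 replicates. Without that library, Spred1 was called higher against C185Gneo as well (0.19, adjusted p = 0.0306). The summed alveolar type 1 markers in C185G were lowest in the same library, at 2259 CPM against 2907 to 3022. The summed airway markers in C185Gneo were lowest in replicate 1, at 6461 CPM against 7852 to 8058. Whether these library differences share a source was not tested.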

How the results depend on the processing

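No call of the 9 genes in the C185G comparisons was lost under any alternative that gave a value; Etv4 has no value with a minimum mean of 5 CPM. Fgfr2 against WT stayed between -1.68 and -1.50 over all alternatives. Spred1 against C185Gneo was also called with library quality weights (0.18, adjusted p = 0.0314). Between the controls, where none of the 9 was called under any alternative, the sign of Etv5 turned with library quality weights (-0.0176, adjusted p = 0.974) and over the libraries left out (-0.0259 to 0.175), and that of Spry4 over the libraries left out (-0.139 to 0.0626). Genes called between the controls numbered 54 without the trend and 162 with quality weights in place of 87, and 40 to 112 with 1 library left out. Pathway genes called there numbered 0 without the trend, with quantile normalization and with the replicate block, and 0 to 1 with 1 library left out.

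Among the uncalled ligand and receptor genes, the sign turned against WT for Fgf18 with library totals (0.0507) and quality weights (0.0324), and for Fgfrl1 with library totals (0.0358). With 1 library left out, Fgf18 ran from -0.19 to 0.12 against WT and from -0.0423 to 0.808 against C185Gneo, Fgf9 from -0.0636 to 0.206, Fgf10 from -0.38 to 0.99 and Fgfr4 from -0.11 to 0.50 against C185Gneo. In the named pathway genes 41 calls were lost in single settings, all of them in Fgf2, Fgf7, Fgf9, Fgf13, Fgfr1, Sdc1 or Dusp9; the cause was not tested.

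Same-numbered libraries did not deviate together throughout (r over 0.1 in 3 of 12 pairs, from -0.30 to 0.25), and 1 library was closest to its own number. Their r was positive between WT and C185Gneo (0.03 to 0.25), negative between WT and C185G (-0.30 to -0.06) and mixed between C185Gneo and C185G. These few values cannot settle whether the numbers pair the samples. The fit with the replicate block called 8670, 9112 and 63 genes in the comparisons as listed, and 8, 7 and 0 of the 9. With it the calls of Epha4 between the controls, of Fgf9 against WT (adjusted p = 0.0811) and of Dusp9 against C185Gneo (adjusted p = 0.0549) were also lost. Leaving out 1 library gave 7932 to 9277 calls against WT and 8414 to 9641 against C185Gneo. Counts under about 100 per library limit Etv4, Fgf7, Fgf9, Fgf10, Fgf13, Fgfr4 and Flrt1 in all groups. Other named genes, such as Fgf2, Fgf18, Frs3 and Dusp9, were also under about 100 in some libraries.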
